A study of Mus musculus with 8 samples.

Results

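The genes described here were 10 genes of lipid droplet formation and triglyceride turnover, out of 33212 genes in the count table: the droplet coat genes Plin2, Plin4 and Plin5, the droplet fusion genes Cidea, Cideb and Cidec, the synthesis gene Dgat2, the lipase gene Pnpla2 with its inhibitor gene G0s2, and the uptake gene Cd36. They were taken by name, for their known roles, and 9 of the 10 passed the filter on low counts and were tested; Cidea did not pass. RNA-seq was performed on whole liver from 8 male C57BL/6 mice, 4 Nnmt KO mice and 4 control mice, and every mouse had eaten a diet lacking methionine and choline (MCD diet) over 8 weeks, so no group on another diet is compared. The KO mice carried Alb-Cre with Nnmt flox/flox, so that recombination is driven by the albumin promoter, and the study calls this knockout hepatocyte-specific. Nnmt in other liver cells was not measured separately. The control mice, labelled WT, were Nnmt flox/flox mice according to the study, and the age of the mice was not given in the sources used here. The libraries of each genotype carry no mouse number in the table and are called a to d here.

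Hepatocytes store surplus fatty acids as triglyceride in lipid droplets, whose surface is coated by perilipins and enlarged by fusion through CIDE proteins. DGAT enzymes add the last fatty acid to diacylglycerol, whereas ATGL, encoded by Pnpla2, removes the first one again and is held back by G0S2. Choline is needed to make phosphatidylcholine for the surface of secreted lipoproteins, and a diet without it is a standard way to load rodent liver with fat; NNMT, the deleted enzyme, uses the methyl donor S-adenosylmethionine to methylate nicotinamide.

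Among the 9 genes tested, 0 passed edgeR's quasi-likelihood test at an adjusted p of 0.05, a threshold that 0.32% of the 15291 genes tested passed. Dgat2 was the gene that stood furthest from equality, with a mean in Nnmt KO livers of 64.7% of that in controls, an adjusted p of 0.114 in edgeR and 0.00513 in DESeq2. It was also the 1 of 9 genes with an unadjusted p under 0.05 in edgeR (11.1% of the 9, against 12.6% of all genes tested, 5.45% higher and 7.13% lower in KO) and the 1 of 9 whose libraries did not overlap between genotypes (against 8.16% of all genes tested, 3.34% higher and 4.81% lower in KO). For the other 8 genes the 95% interval of the log2 fold change held 0, and for 8 of the 9 genes, all but G0s2, that interval lay within a 2-fold difference in either direction. The median log2 fold change (Nnmt KO minus control, as everywhere here) of the 9 genes was 0.11, with 5 positive and 4 negative values, against a median of 0.02 over all genes tested.

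Promoter sequences are shown for Plin4, Plin5 and Pnpla2, because the levels of these 3 genes varied together from mouse to mouse, as described further on. Each holds 300 bases, 250 before and 50 after a transcription start listed by RefSeq (build GRCm38.p6), is written 5′ to 3′ on the strand of the gene, and has the matches to 6 short motifs, on either strand, in capitals.
Plin4 (chr17:56109733-56110032, minus strand): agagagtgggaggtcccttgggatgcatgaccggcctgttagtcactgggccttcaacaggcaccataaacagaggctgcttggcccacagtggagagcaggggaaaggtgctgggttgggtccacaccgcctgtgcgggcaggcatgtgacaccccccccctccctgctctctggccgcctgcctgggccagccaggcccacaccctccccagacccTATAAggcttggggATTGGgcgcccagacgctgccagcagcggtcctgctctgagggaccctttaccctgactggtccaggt
Plin5 (chr17:56117499-56117798, minus strand, the upstream one of 2 listed starts): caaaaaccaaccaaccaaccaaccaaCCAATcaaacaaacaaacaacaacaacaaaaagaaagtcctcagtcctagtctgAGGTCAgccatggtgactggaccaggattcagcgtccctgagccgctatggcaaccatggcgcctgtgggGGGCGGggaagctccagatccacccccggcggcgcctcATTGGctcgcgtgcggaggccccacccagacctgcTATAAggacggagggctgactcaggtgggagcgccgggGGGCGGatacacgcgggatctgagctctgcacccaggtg
Pnpla2 (chr7:141454938-141455237, plus strand): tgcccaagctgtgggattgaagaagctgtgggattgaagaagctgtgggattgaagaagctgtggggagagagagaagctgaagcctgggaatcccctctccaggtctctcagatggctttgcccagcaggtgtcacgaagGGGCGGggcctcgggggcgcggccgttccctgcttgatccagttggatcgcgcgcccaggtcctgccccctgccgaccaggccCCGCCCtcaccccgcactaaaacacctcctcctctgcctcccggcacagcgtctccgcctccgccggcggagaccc
The motifs searched were AGGTCA (the core of many nuclear receptor sites), the direct repeat of AGGTCA with 1 base of any kind in between (which PPAR binds together with RXR), CACGTG (the E-box), CCAAT (the CCAAT box), GGGCGG (the GC box) and TATAA (part of the TATA box). A TATAA match began at -32 from the start in Plin4 and at -27 in Plin5, while the Pnpla2 window held GGGCGG matches at -109 and -26 and none of the other motifs. Plin5 alone of these 3 windows held AGGTCA, at -170, a motif present in 16.3% of the 32851 promoter windows of this length; TATAA was present in 24.9%, CCAAT in 37.4%, GGGCGG in 35.7% and CACGTG in 7.15%. The direct repeat was found in 0.0396% of all windows and in none of these 3. These matches are descriptions of letters and not of factor binding, and RefSeq windows were matched for 8 of the 10 genes.

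The libraries held between 75020072 and 87934362 counts. In whole liver, fewer cells of a type and less RNA per cell cannot be told apart. The targeted gene, Nnmt, was at 31.8, 44.8, 68.9 and 83.0 CPM (counts scaled to a common library size after TMM normalization) in KO mice a to d and at 112, 224, 134 and 84.9 in control mice a to d, a log2 fold change of -1.28 (SE 0.33, edgeR adjusted p = 0.123), without overlap between the genotypes. KO library a stood apart, with a normalization factor of 1.209 against 0.952 to 0.977 in the other KO libraries. It also had the lowest summed level of 8 hepatocyte markers (62640 CPM, against 73930 to 112800 in the 7 other libraries). That sum is scaled by the same factor and was mostly Alb (48510 CPM). KO library a and control library d had the highest summed levels of 8 macrophage markers, 1157 and 1263 CPM, against 524 to 667 in the other 6 libraries. Gpnmb, Adgre1, Cd68, Cd5l, Trem2 and Csf1r were each highest in these libraries, whereas Clec4f and Timd4 were not. Adipocytes, the cells in which many of these genes were first studied, left little trace: of 6 adipocyte markers Adipoq, Lep and Plin1 were at 0 in all 8 libraries, Retn and Cfd did not exceed 0.205 CPM, and Lipe, the 1 that was tested, was at 18.1 to 23.9 CPM.

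The 10 genes covered a wide range of levels. On the scale of CPM per kb of exon, Plin2 was highest, with means of 603 in KO and 533 in control livers, and its lowest library (364) lay above the highest library of any other of the 10 genes (264, for G0s2). In control livers Dgat2 followed with a mean of 227, and its 4 libraries (196 to 261) lay above those of every gene below it. Cideb, G0s2, Plin5, Cidec, Pnpla2 and Cd36 came next, from 148 (Cideb) to 58.4 (Cd36), and each of these overlapped with its neighbour in that order. Plin4 was at 8.50 in KO and 7.58 in control livers, with no library above 11.6, and Cidea was near 0. In KO livers the order within the middle group differed, since the mean of G0s2 (199) lay above that of Dgat2 (147), with overlapping libraries.

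**Figure D1:**
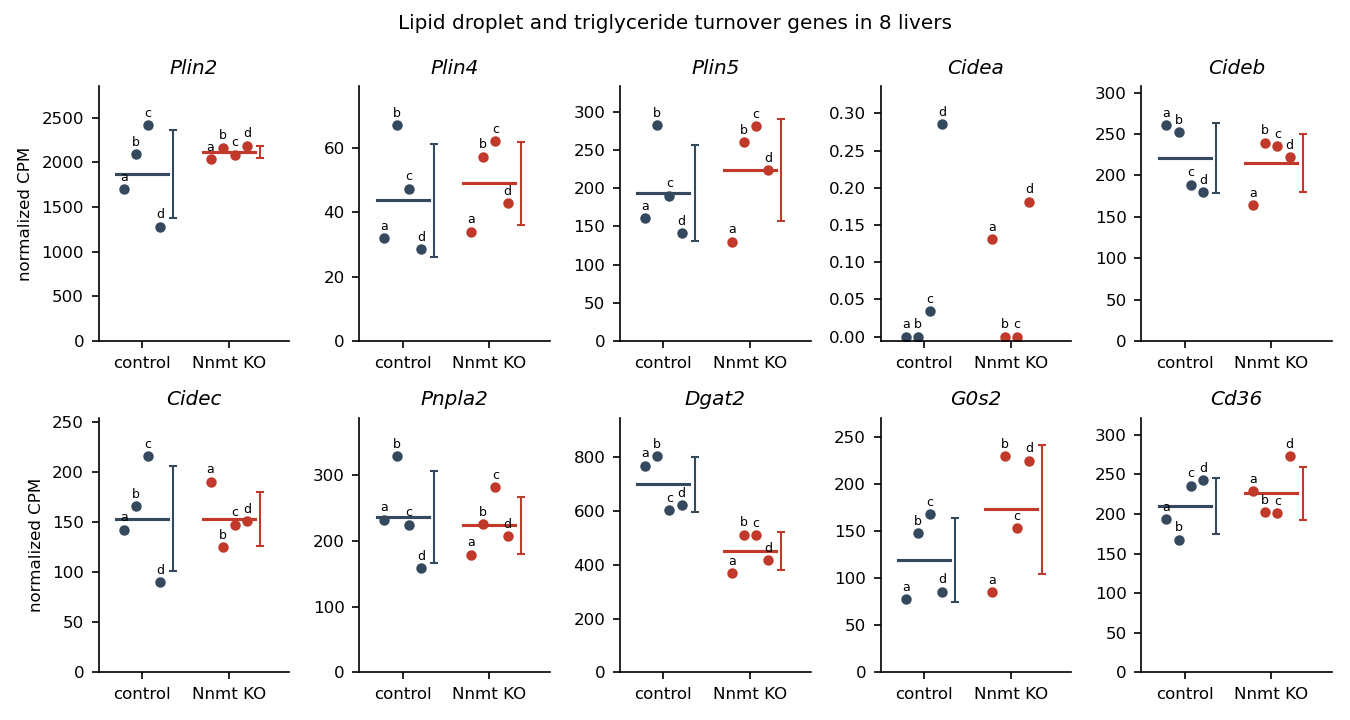
Normalized CPM (linear axis, each panel with its own scale) of the 10 genes in the 4 control (blue) and 4 Nnmt KO (red) livers; points are libraries a to d, horizontal lines the mean and vertical bars the SD, which are left out for Cidea. For Dgat2 all KO points (369 to 513 CPM) lie below all control points (603 to 804 CPM), and in the other 9 panels the genotypes overlap.

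Dgat2 (chr7:99153658-99182719, minus strand) encodes the diacylglycerol acyltransferase that completes triglyceride from newly made fatty acids. It was measured at 369, 513, 511 and 419 CPM in KO mice a to d and at 769, 804, 603 and 623 CPM in control mice a to d. Every KO library lay below every control library, with a gap between 513 and 603 CPM. The means were 453 ± 71.1 and 700 ± 102 CPM (SD, n = 4 each), and the log2 fold change was -0.63 (SE 0.16, 95% interval -0.97 to -0.29). An exact two-sided permutation test of this gene alone gave p = 0.0286, the smallest value that 4 mice against 4 allow. That value follows from the lack of overlap and adds nothing to it. The unadjusted edgeR p was 0.00191. In edgeR the difference did not pass adjustment over all genes (adjusted p = 0.114, between 0.124 and 0.356 with 1 library left out), whereas DESeq2 gave a log2 fold change of -0.63 with an adjusted p of 0.00513. DESeq2 called 3.22% of the genes to which it gave an adjusted p, 1.35% as higher and 1.87% as lower in KO.

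Dgat2 was also set against Pnpla2 within the same library, which removes the scaling between libraries. This ratio uses the same Dgat2 counts, and Pnpla2, also on chromosome 7, differed little (log2 fold change -0.08). It is therefore not separate evidence of a lower Dgat2 level. The ratio of Dgat2 to Pnpla2 CPM was 2.06, 2.28, 1.82 and 2.02 in KO mice a to d and 3.31, 2.45, 2.69 and 3.93 in control mice a to d, so that the genotypes did not overlap. The mean log2 ratio was 1.02 ± 0.13 in KO and 1.60 ± 0.31 in control livers (SD, n = 4 each).

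Dgat2 lies on chromosome 7, where the median log2 fold change of the 1153 other tested genes was -0.14. Within 5 Mb on either side of Dgat2, 85 other genes were tested, with a median of -0.16; at an unadjusted p under 0.05 in edgeR 29 of them were lower in KO livers and 1 was higher. Of these neighbours 7 (8.24%) had a lower log2 fold change than Dgat2. Pnpla2, on the same chromosome, had 102 tested neighbours within 5 Mb with a median of -0.33, of which 43 were lower and 6 higher at an unadjusted p under 0.05, and its own value of -0.08 lay above that of 78 of them (76.5%). Over all genes tested, 7.13% were lower and 5.45% higher in KO livers at that threshold. The part of the regional shift in the Dgat2 difference was not tested. With normalization factors computed without the genes of chromosome 7, Dgat2 remained uncalled (log2 fold change -0.64, edgeR adjusted p = 0.106). Such factors move all genes of a library alike, so they do not address a shift of the region.

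**Figure D2:**
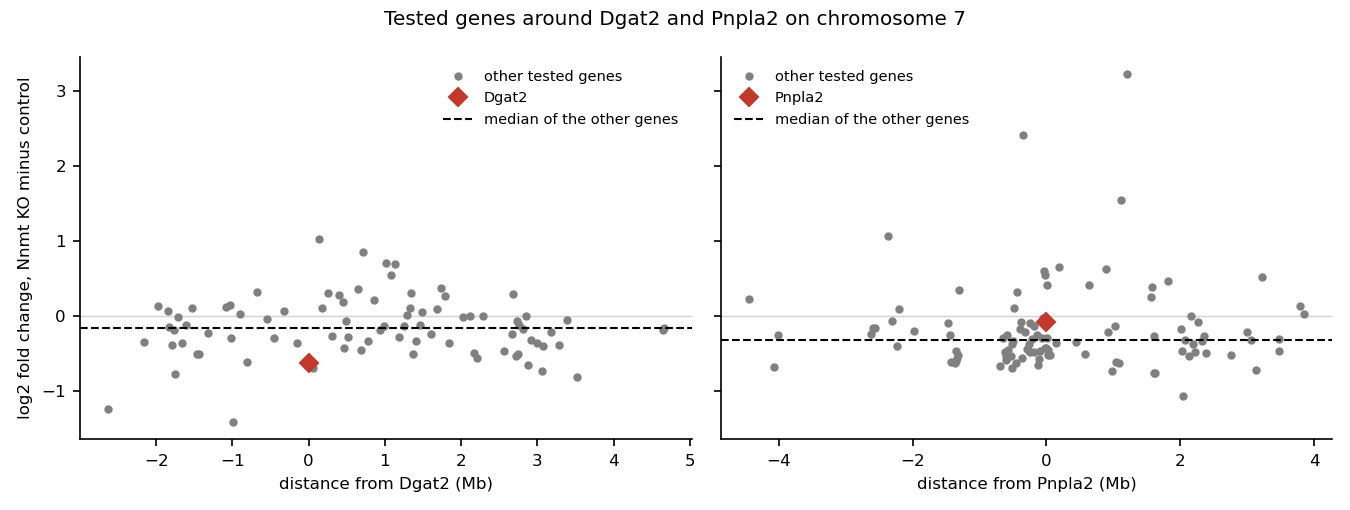
Log2 fold change (Nnmt KO minus control) of tested genes against their distance in Mb from Dgat2 (left) and Pnpla2 (right), both on chromosome 7; each grey point is a gene, the red diamond the named gene and the dashed line the median of the other genes. Both medians lie below 0 (-0.16 and -0.33), Dgat2 lies below most of its neighbours and Pnpla2 above most of its own.

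Markers of hepatic stellate cells, the cells that lay down collagen in damaged liver, were measured in the same libraries. Of 6 such markers 4 (Lrat, Rgs5, Dcn and Reln) were higher in KO livers at an unadjusted edgeR p under 0.05, against 5.45% of all genes. The collagen gene Col1a1 (log2 fold change 0.26) and Des (0.007) had overlapping libraries and unadjusted edgeR p values of 0.624 and 0.967. In edgeR 0 of the 6 markers had an adjusted p under 0.05 (1 in DESeq2). Their summed level, with Dcn as the largest part, was 412 to 571 CPM in KO and 297 to 407 CPM in control livers. The summed level of the 8 hepatocyte markers overlapped between the genotypes. The part of these cell types in the Dgat2 difference was not tested.

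Plin2 (chr4:86648386-86670060, minus strand) encodes the main perilipin of fatty liver, which covers droplets in most cell types. It was measured at 2035, 2164, 2084 and 2186 CPM in KO mice a to d and at 1697, 2088, 2418 and 1280 CPM in control mice a to d. All 4 KO libraries lay between the lowest and the highest control library, and within the KO group they lay close together. The coefficient of variation was 3.31% in KO and 26.3% in control livers, a contrast in spread that was not tested. The means were 2117 ± 70.1 and 1870 ± 492 CPM, with a log2 fold change of 0.18 (SE 0.19, 95% interval -0.23 to 0.59, edgeR adjusted p = 0.733).

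Plin5 (chr17:56111601-56117596, minus strand) encodes the perilipin of tissues that burn fatty acids, where it ties droplets to mitochondria. Its levels were 130, 260, 281 and 223 CPM in KO mice a to d and 161, 283, 190 and 141 CPM in control mice a to d. KO library a was the lowest of the 8 and control library b the highest, so the genotypes overlapped fully. The log2 fold change was 0.21 (SE 0.26, 95% interval -0.36 to 0.77, edgeR adjusted p = 0.779).

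Plin4 (chr17:56100591-56109803, minus strand) encodes a perilipin of small, newly formed droplets and is the gene next to Plin5, 1797 bases away on the same strand. It was measured at 34.0, 57.3, 62.1 and 42.9 CPM in KO mice a to d and at 32.1, 67.2, 47.3 and 28.5 CPM in control mice a to d. The libraries ranked much as they did for Plin5, with control library b highest and KO library a and control libraries a and d lowest. The log2 fold change was 0.16 (SE 0.27, 95% interval -0.42 to 0.75, edgeR adjusted p = 0.839). The ratio of Plin4 to Plin5, chosen after its values were seen, was 0.192 to 0.262 in KO and 0.199 to 0.249 in control livers, and the ratios of Plin5 and of Plin4 to Plin2 overlapped between genotypes as well, with mean differences of -0.02 and -0.01 on the log2 scale.

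Cidec (chr6:113424634-113435760, minus strand) encodes the CIDE protein that enlarges droplets at their contact sites and is abundant in fat-loaded hepatocytes. Its levels were 190, 125, 147 and 151 CPM in KO mice a to d and 142, 166, 215 and 90.0 CPM in control mice a to d. The KO libraries lay within the control range, and the means, 153 ± 27.1 and 153 ± 52.1 CPM, gave a log2 fold change of 0.00 with a 95% interval of -0.50 to 0.50 (edgeR adjusted p = 0.999). Cideb (chr14:55754050-55758458, minus strand), the CIDE gene of normal liver that acts in the loading of lipoproteins with fat, was at 164, 240, 235 and 222 CPM in KO and at 261, 253, 189 and 180 CPM in control mice. KO library a was the lowest and the groups overlapped, with a log2 fold change of -0.04 (SE 0.17, 95% interval -0.40 to 0.33, edgeR adjusted p = 0.947). The exons of Cideb share 1136 bases of 1.488 kb with Nop9 on the other strand, and the strand setting of the counting was not given in the sources used here, so reads of the pair may not be told apart; Nop9 itself was at 3235 to 5663 counts.

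Cidea, the CIDE gene of brown fat that is also found in very fatty livers, had 12, 0, 0 and 13 counts in KO mice a to d and 0, 0, 3 and 24 counts in control mice a to d. The libraries with counts were found in both genotypes, and the highest, control library d, reached 0.285 CPM. A count of 0 allows up to 3 counts, or 0.0341 to 0.0363 CPM before normalization in the 4 libraries concerned, counting error only. No fold change is given for this gene.

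**Figure D3:**
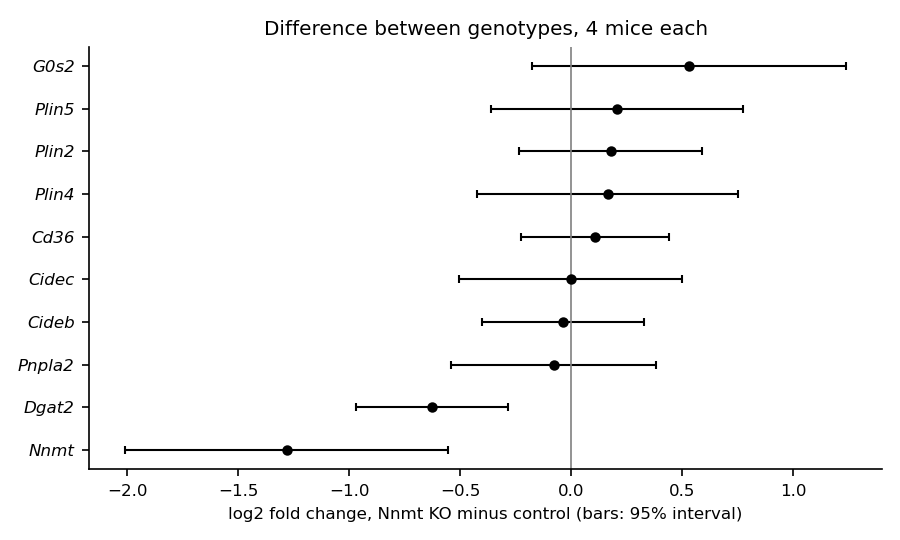
Log2 fold change (Nnmt KO minus control) of the 9 tested genes and of Nnmt, with bars for the 95% interval from edgeR's quasi-likelihood fit, 4 livers per genotype. The bars of Dgat2 (-0.97 to -0.29) and Nnmt lie below 0, and those of the other 8 genes cross 0.

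Pnpla2 (chr7:141455198-141460743, plus strand) encodes ATGL, the lipase that starts triglyceride breakdown on the droplet. It was measured at 179, 225, 282 and 208 CPM in KO mice a to d and at 232, 329, 225 and 158 CPM in control mice a to d. The highest and the lowest library were both controls, b and d. The log2 fold change was -0.08 (SE 0.21, 95% interval -0.54 to 0.38, edgeR adjusted p = 0.906).

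G0s2 (chr1:193272161-193273217, minus strand) encodes the small protein that binds ATGL and blocks it. Its levels were 85.1, 230, 153 and 225 CPM in KO mice a to d and 77.9, 148, 168 and 85.9 CPM in control mice a to d. KO libraries b and d were above every control library, whereas KO library a was near the lowest controls. The log2 fold change of 0.53 was the largest positive value of the 9 genes, with a 95% interval of -0.18 to 1.24 (SE 0.32, edgeR adjusted p = 0.529). Without KO library a, which also had the lowest hepatocyte marker level, it was 0.76 with an edgeR adjusted p of 0.229 (0.0139 before adjustment), so that 2 of the 9 genes had an unadjusted p under 0.05 (13.3% of all genes did so in that fit). Leaving out each library in turn gave 0.37 (without KO library b) to 0.76. Within libraries, the ratio of the inhibitor to its lipase, G0s2 to Pnpla2, was 0.475, 1.02, 0.544 and 1.08 in KO mice a to d and 0.335, 0.450, 0.748 and 0.543 in control mice a to d, and the groups overlapped. The mean difference in this ratio was 0.56 on the log2 scale, with SDs of 0.61 in KO and 0.49 in control livers.

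Cd36 (chr5:17781690-17888801, minus strand) encodes the scavenger receptor that helps long-chain fatty acids across the plasma membrane and that macrophages and endothelial cells express as well. It was at 229, 202, 201 and 273 CPM in KO mice a to d and at 193, 168, 236 and 242 CPM in control mice a to d. The KO range lay somewhat higher, control libraries a and b were below every KO library and the groups overlapped, and the log2 fold change was 0.11 (SE 0.15, 95% interval -0.22 to 0.44, edgeR adjusted p = 0.804).

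The genes were then compared with each other among mice of one genotype, by subtracting each genotype's mean log2 CPM and correlating the 8 libraries over the 36 pairs of the 9 tested genes; these are descriptions, since all genes of a library share its scaling and its mix of cells. Of the 36 pairs 5 had a Pearson r of 0.8 or more. How common such values are among pairs of other tested genes was not computed. Plin4 and Plin5 had the highest, r = 0.94 with Spearman's rho = 0.95, which was 0.90 without the 2 libraries farthest from the median (control b and d), 0.90 under scaling by library size only and 0.98 without KO library a. Pnpla2 varied with both, with r = 0.89 against Plin4 and 0.87 against Plin5 (rho = 0.93 and 0.88), and 0.76 and 0.84 without the 2 farthest libraries. The mouse with the most Plin4, control b, also had the most Pnpla2 and Plin5. Cideb and Dgat2 gave r = 0.93 (rho = 0.83), which was 0.70 under scaling by library size only. Both lay above their genotype means in KO mice b and c and control mice a and b. Both lay below them in KO mouse a and control mice c and d. A pooled r does not tell such clusters from a graded relation. The r of 0.85 between Plin2 and Cidec rested on control libraries c and d, the highest and the lowest for both genes, and was 0.10 without them.

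Cd36 was low where several other genes of the group were high. With Pnpla2, Cideb, Plin4 and Plin5 its r lay between -0.77 and -0.55, and these values and that with Dgat2 were also below 0 under scaling by library size only, without KO library a and without the 2 farthest libraries. With G0s2 (r = -0.01), Cidec (-0.09) and Plin2 (-0.20) it was close to 0, and its sign turned under at least 1 of those settings. Set against Dgat2, the libraries fell into 2 clusters, so no pooled value is given for this pair. In KO mice b and c and control mice a and b Dgat2 lay above and Cd36 below its genotype mean, in KO mouse d and control mice c and d it was the reverse, and KO mouse a had the lowest Dgat2 value with Cd36 close to its mean. The summed macrophage markers were highest in KO library a and control library d. Cd36 was highest among the controls in library d (242 CPM) and among the KO libraries in library d (273 CPM). That KO library had the lowest macrophage sum of the KO group (546 CPM). The part of macrophages in this pattern was not tested.

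**Figure D4:**
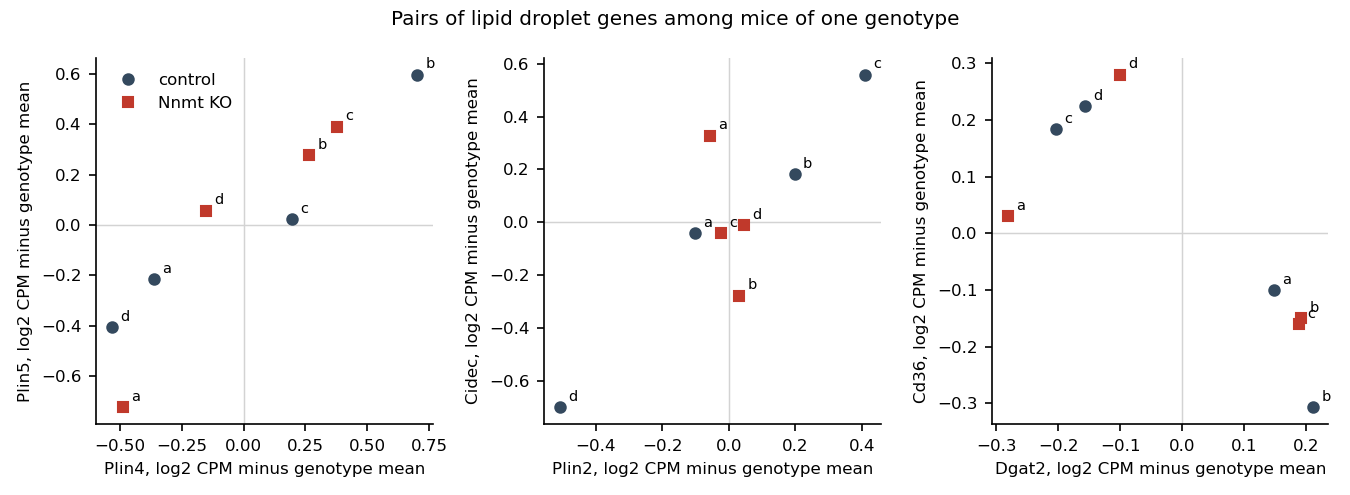
Log2 CPM minus the mean of the genotype for 3 pairs of genes, with 1 point per liver (blue circles control, red squares Nnmt KO, letters naming the library). Plin4 and Plin5 lie along a rising line in both genotypes (r = 0.94), the Plin2 and Cidec pair is spread out by control libraries c and d, and Cd36 is low where Dgat2 is high.

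Over all 8 libraries, the 5 tested genes whose log2 CPM was most like that of Dgat2 were Wdr18 (r = 0.99, a WD-repeat protein gene), Glyctk (r = 0.99, glycerate kinase), Puf60 (r = 0.99, a splicing factor), Gorasp1 (r = 0.98, a Golgi stacking protein) and Serpinf1 (r = 0.98, which encodes PEDF). In each of these 5 genes all KO libraries lay below all control libraries, with log2 fold changes from -0.58 (Serpinf1) to -0.25 (Puf60) and edgeR adjusted p values of 0.107 (Glyctk) to 0.329 (Puf60). The likeness includes the genotype difference itself and is the top of a ranking of all genes tested.

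The wider pathway was described through 6 lists. These lists were written with earlier results of these data known, so the shares given below are descriptions and not tests of enrichment. In edgeR 0 of their tested genes had an adjusted p under 0.05. Among 21 tested genes for lipid droplet proteins, 1 was higher and 2 were lower in KO livers at an unadjusted p under 0.05. This share of 14.3% was near the 12.6% of all genes tested, and the median log2 fold change was 0.00. Fitm1, which encodes an endoplasmic reticulum protein that helps package triglyceride into droplets, was at 7.24 ± 1.20 CPM in KO and 13.1 ± 2.21 CPM in control livers, without overlap (log2 fold change -0.86, SE 0.16, adjusted p = 0.0645 in edgeR and 0.000433 in DESeq2). Hilpda, whose product also inhibits ATGL, was at 8.58 ± 1.32 and 5.65 ± 1.52 CPM (0.60, SE 0.20, edgeR adjusted p = 0.228), and Ldah, a droplet-associated hydrolase gene, at 38.5 ± 2.21 and 47.1 ± 4.86 CPM (-0.29, SE 0.10, edgeR adjusted p = 0.271).

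Triglyceride synthesis, with 17 tested genes including Dgat2, had 3 genes higher and 4 lower at an unadjusted p under 0.05. These were 41.2% of the list against 12.6% of all genes, and the median was 0.05. Among the lower genes, Dgat2 and Mogat2 (log2 fold change -0.70, edgeR adjusted p = 0.365, overlapping libraries) lie 0.06 Mb apart on chromosome 7. They share the region of mostly lower genes described above. The other lower genes, Agpat2 (-0.44, edgeR adjusted p = 0.257, without overlap) and Lpin3, lie on chromosome 2. The lipins, which dephosphorylate phosphatidic acid to diacylglycerol, lay on both sides of 0. Lpin3 was at 15.7 ± 3.68 CPM in KO and 28.8 ± 5.90 CPM in control livers (log2 fold change -0.87, SE 0.18, adjusted p = 0.0726 in edgeR and 0.00193 in DESeq2), and Lpin2 at 551 ± 78.2 and 391 ± 42.6 CPM (0.50, SE 0.14, adjusted p = 0.161 in edgeR and 0.0161 in DESeq2), both without overlap. Lpin1, named after its values were seen, had the largest positive value of the list, with 534 ± 202 and 292 ± 141 CPM and overlapping libraries (0.87, SE 0.34, adjusted p = 0.317 in edgeR). Without KO library a, a fit that called 0.963% of all genes, the edgeR adjusted p of Lpin3 was 0.0195. With any other library left out, 0 genes of this list were called. Dgat1, the other diacylglycerol acyltransferase gene, named here after its values were seen, was at 36.3 ± 5.62 and 41.6 ± 5.22 CPM (-0.19, edgeR adjusted p = 0.594), and whether it differed from Dgat2 in its response was not tested.

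In the lipolysis list 5 of 19 tested genes (26.3%, against 12.6% of all genes in either direction and 5.45% higher) were higher in KO livers and 0 lower at an unadjusted p under 0.05, with a median of 0.21; DESeq2 called 0 of them. The carboxylesterase genes Ces1g and Ces1f, whose products can hydrolyse triglyceride in the liver, were at 140 ± 33.2 against 93.4 ± 17.1 CPM and at 117 ± 17.1 against 79.6 ± 19.9 CPM, with log2 fold changes of 0.58 and 0.56 and edgeR adjusted p values of 0.209 and 0.222. All KO libraries lay above all control libraries for both; the Ces1 genes are close copies of each other, so that reads may have been divided between them. Hilpda and G0s2 are on this list too, with log2 fold changes of 0.60 and 0.53, and their products act against lipolysis.

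Fatty acid uptake and activation had a median of 0.08. At an unadjusted p under 0.05, 1 of 19 tested genes was higher and 0 lower (5.26%, against 12.6% of all genes). This gene was Vldlr, the very low density lipoprotein receptor gene, at 8.27 ± 1.32 CPM in KO and 5.76 ± 1.68 CPM in control livers (log2 fold change 0.52, edgeR adjusted p = 0.350). Acsl1, the main acyl-CoA synthetase gene of liver, and Fabp7, a fatty acid binding protein gene, had log2 fold changes of 0.35 and 0.56 with overlapping libraries (edgeR adjusted p = 0.450 and 0.512). Of the 8 tested genes for triglyceride secretion 0 had an unadjusted p under 0.05 in edgeR and DESeq2 called 0. Apob, the structural protein of the secreted particle, was at 2957 ± 380 CPM in KO and 2326 ± 338 CPM in control livers without overlap (0.35, edgeR adjusted p = 0.405), while Apoa4 (-0.51) and P4hb (-0.30), a subunit gene of the lipid transfer protein MTP, overlapped.

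Among 17 tested genes for transcription factors of lipid metabolism, 3 were higher and 4 lower at an unadjusted p under 0.05 (of all genes 5.45% were higher and 7.13% lower), with a median of 0.10. Ppargc1a, the coactivator gene of mitochondrial and fasting programmes, was at 20.9 ± 4.92 CPM in KO and 11.8 ± 1.05 CPM in control livers (log2 fold change 0.82, SE 0.17, adjusted p = 0.0711 in edgeR and 0.00104 in DESeq2). Cebpa, a hepatocyte and adipocyte differentiation factor gene that also lies on chromosome 7, was at 173 ± 17.0 and 268 ± 40.1 CPM (-0.63, SE 0.13, adjusted p = 0.0778 in edgeR and 0.00122 in DESeq2), and Prox1, a hepatocyte identity factor gene, at 75.7 ± 9.34 and 53.7 ± 6.57 CPM (0.49, SE 0.13, adjusted p = 0.120 in edgeR and 0.0161 in DESeq2). The genotypes did not overlap for any of these 3 genes. Without KO library a the edgeR adjusted p of Ppargc1a was 0.0189, and 0.963% of all genes were called in that fit. With any other library left out, 0 genes of this list were called.

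**Figure D5:**
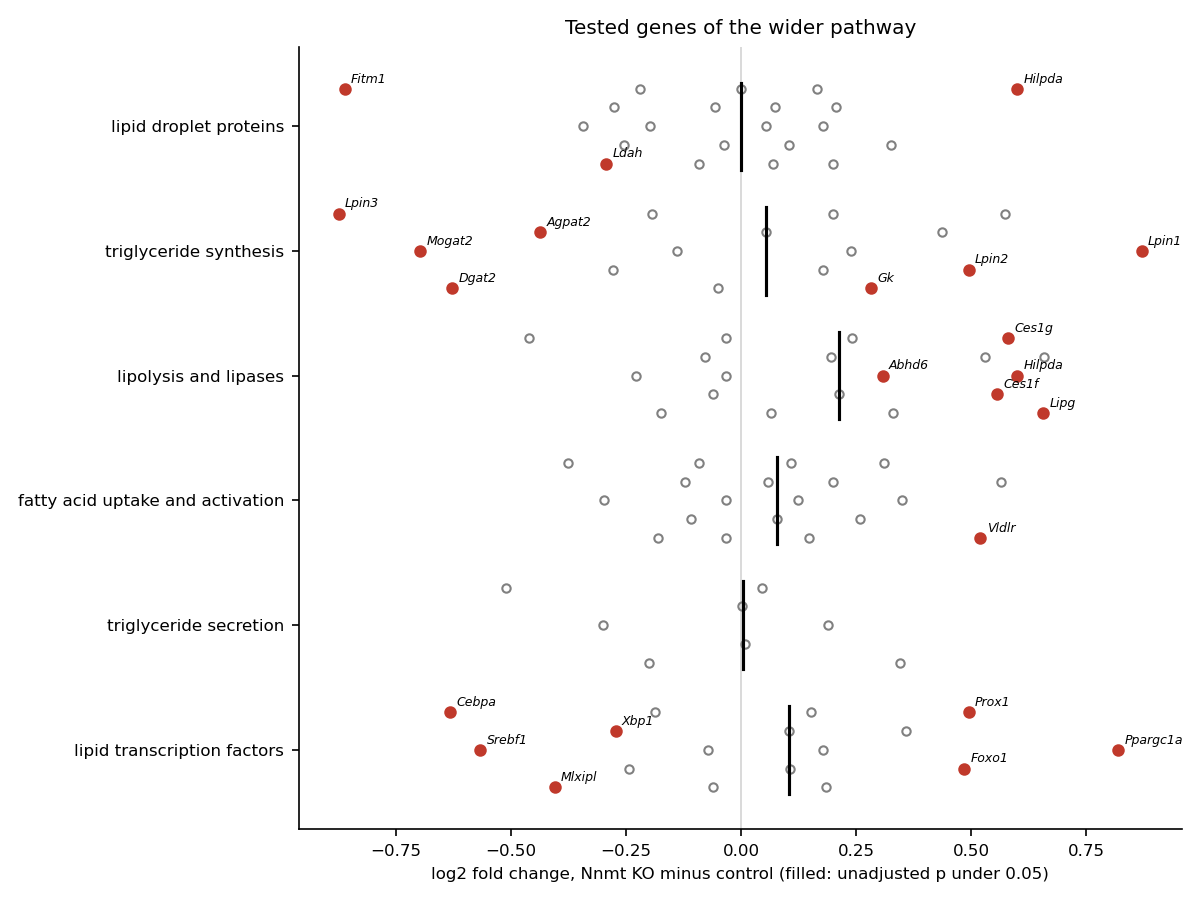
Log2 fold change (Nnmt KO minus control) of the tested genes in 6 lists of the wider pathway, with filled, named points for genes at an unadjusted edgeR p under 0.05 and black bars for the list medians; points are set at different heights only to keep them apart. Dgat2 lies at -0.63 in the triglyceride synthesis list, which has named genes on both sides of 0, and the named genes of the lipolysis list all lie above 0.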

How the data were processed

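Liver RNA was sequenced from 4 Nnmt KO and 4 control mice. The authors deposited 1 table of estimated counts per gene (unit: expected counts, whole numbers); the submitters' processing notes name HISAT2, StringTie and build mm10, with the role of each not stated there. Among its low values 4 is more frequent (2639 values) than 3 (2128) or 5 (2128), so 1 count need not be 1 read. Of 33212 genes 12414 were at 0 throughout.

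From these counts, edgeR 4.0.16 (R 4.3.3) was run with TMM factors, filterByExpr (minimum count 10; 15291 genes) and the quasi-likelihood test over all genes with Benjamini-Hochberg adjustment; groups came from column names. CPM are TMM-normalized, and log2 CPM for correlations used a prior count of 2. DESeq2 1.42.0, 2 other scalings, no filter, scaling without chromosome 7 and leaving out each library were alternatives. Gene positions and exon lengths are from GENCODE M21 (GRCm38). Totals of 75020072 to 87934362 counts limit precision by counting error only. The p-values measure the spread between these libraries, which the labels give as separate samples.

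The genes and lists were chosen with earlier results of these data known. Outside the 10 genes, genes are named by rule: per list the 3 with the smallest p, and the 5 genes most correlated with the member of smallest p. Agpat2, Dgat1, Lpin1, Mogat2, Nop9 and single cell type markers are named outside it, after their values were seen.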

Additional observations from a re-analysis of the deposited data

Results flagged for a closer look

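Of 24 groups of 4 libraries looked at, 2 held a library whose gap to the nearest other, divided by the range of the group, was above Dixon's 95% critical value; chance gives about 1 in 20 such groups. Cidea was at 0.285 CPM in control library d, where the other controls lay between 0 and 0.0346 CPM. The TMM normalization factor of KO library a was 1.209, where the other KO libraries lay between 0.952 and 0.977. This library also had the lowest summed hepatocyte marker level, in CPM scaled by that factor, so these values are not independent.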

How the results depend on the processing

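Dgat2 was lower in KO livers under all 13 alternatives run, with log2 fold changes of -0.69 to -0.54 when 1 library was left out; its adjusted p ran from 0.00513 to 0.356, and DESeq2 (-0.63, SE 0.16) was the 1 alternative that called it. Plin2, Plin4, Plin5, G0s2 and Cd36 were positive and uncalled under all 13, but with 1 library left out they ran from 0.034 to 0.33, 0.0058 to 0.46, 0.077 to 0.46, 0.37 to 0.76 and 0.0071 to 0.19, in that order, so some were close to 0. The sign turned for 3 genes whose main value was near 0. Cideb was 0.016 under scaling by library size only and -0.12 to 0.075 with 1 library left out. Cidec was 0.0067 with DESeq2 size factors, 0.080 with library size only, 0.0057 in DESeq2, 0.0097 without a filter and -0.19 to 0.21 with 1 library left out. Pnpla2 was -0.23 to 0.14 with 1 library left out, and positive without KO library a (0.01) or control library b (0.14). Scaling by library size only moved the median of all genes from 0.02 to 0.07.

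The number of the 10 genes called was 1 with DESeq2 and 0 under each other alternative, and the number at an unadjusted p under 0.05 was 1 to 2 with 1 library left out. DESeq2 called 1 gene for droplet proteins, 3 for triglyceride synthesis and 4 for transcription factors, and leaving out 1 library gave 0 to 1 for each of the latter lists. Over all genes the 49 calls became 30 with DESeq2 size factors, 22 with library size only (19 higher and 3 lower, against 28 and 21), 474 with DESeq2, 8 without a filter and 6 to 149 with 1 library left out (149 without KO library a); genes at an unadjusted p under 0.05 ran from 1259 to 2194 there. The cause was not tested. Cidea had no fold change to recompute. No paired analysis was possible because the columns of the table carry no mouse numbers.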

Other observations

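Other cell type markers gave the following values at an unadjusted edgeR p under 0.05. Over all genes tested, 5.45% were higher and 7.13% were lower in KO livers at that threshold. Of the 8 hepatocyte markers 1 was lower in KO livers, of 8 macrophage markers 0, of 6 endothelial markers 0, with summed levels of 183 to 210 CPM in KO and 144 to 278 CPM in control livers. Of 4 cholangiocyte markers 1 was higher (17.5 to 35.2 CPM summed in KO, up to 29.3 CPM in control livers) and of 3 erythroid markers 1 was lower (399 to 516 against 422 to 663 CPM). The 4 T cell and B cell markers summed to 2.47 to 3.06 CPM in KO and 1.31 to 2.03 CPM in control livers, with 1 higher, and skeletal muscle markers stayed at or below 0.657 CPM in both. In edgeR 0 of these markers had an adjusted p under 0.05.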
